A study of Mus musculus with 52 samples.

Results

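The genes examined here encode the receptor subunits for the fast and slow transmitters glutamate, GABA and glycine. They were taken as every symbol of the AMPA, NMDA, kainate, delta and metabotropic glutamate receptor families and of the GABA-A, GABA-B and glycine receptor families that reached 10 counts in at least 2 libraries of a table. Of 52 such symbols among the 21999 rows of each count table, 47 reached this minimum in a light-pulse experiment and 48 in an Npas4 experiment, and 47 did so in both. The classes held 4 AMPA, 7 NMDA, 5 kainate, 2 delta, 8 metabotropic, 19 GABA-A, 2 GABA-B and 5 glycine receptor genes before the minimum was applied.

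The study measured messenger RNA of the suprachiasmatic nucleus (SCN), the hypothalamic nucleus that holds the circadian pacemaker of mammals, in male mice aged 11 to 12 weeks. In the light-pulse experiment, wild-type mice stayed in the dark until circadian time (CT) 17, in the subjective night, or until CT23, with 4 and 2 libraries. Others were exposed to light that began at CT17 and lasted 0.5 h, with 4 libraries, or 1, 3 or 6 h, with 2 libraries per duration. In the Npas4 experiment, mice null for Npas4 and their wild-type littermates remained in darkness or were exposed to light for 1 h from CT17, with 3 libraries in each of the 4 groups. Npas4 encodes a transcription factor that neuronal activity induces. Each RNA library pooled 6 pairs of SCN, so a library is a pool of animals, and the strain is not given in the labels. Histone marks were profiled in wild-type SCN with or without 1 h of light, with 1 library per mark and condition from 2 pairs of SCN.

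Glutamate released by retinal axons carries the light signal to the SCN, where AMPA and NMDA receptors are cation channels that depolarise the receiving neuron. Nearly all SCN neurons release GABA, which opens the chloride channels of GABA-A receptors and acts through the G-protein-coupled GABA-B receptors. A GABA-A receptor is a ring of subunits, usually of the alpha and beta kinds with a gamma or delta subunit, so the receptor's properties follow from which subunit genes a cell expresses.

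The 12 light-pulse libraries without the letter s in their label held 12477382 to 15369985 counts, the 4 with that suffix 27413860 to 30149286, and the 12 libraries of the Npas4 experiment 26638939 to 32097975. The suffix marks 2 of the 4 libraries at CT17 and 2 of the 4 at 0.5 h, which stood apart from all others, and its meaning is not given in the labels. All 8 pan-neuronal and all 12 SCN neuron marker genes were detected. So were markers of oligodendrocytes, astrocytes, microglia, endothelium and other hypothalamic neurons, and a difference in a bulk sample cannot separate fewer cells of a type from less RNA per cell. Whether libraries of a group came from separate days is not given, so a p-value here covers only the spread among these pools, which may in part be technical.

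Levels between genes are compared as RPKM, which corrects read counts for library size and for the length of each gene. The RPKM values use 1 length per gene, from 2010 to 24842 bases among the members. The order of genes depends on these lengths. In the dark at CT17 the highest receptor transcripts were Gabbr1, the GABA-binding subunit of the GABA-B receptor, at 118 ± 8.10 RPKM (SD, n = 4), and Gria1, an AMPA receptor subunit, at 115 ± 7.15 RPKM (SD, n = 4). These neighbours in the order did not differ beyond their spread. The GABA-A subunit Gabra3 lay at 55.7 ± 5.75 RPKM, Glrb, the beta subunit that anchors glycine receptors at the synapse, at 50.2 ± 1.36 RPKM, and Gria2, the AMPA subunit that limits calcium entry, at 48.3 ± 3.42 RPKM. The SDs of Gabra3 and Glrb overlapped, and so did those of Glrb and Gria2.

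**Figure D1:**
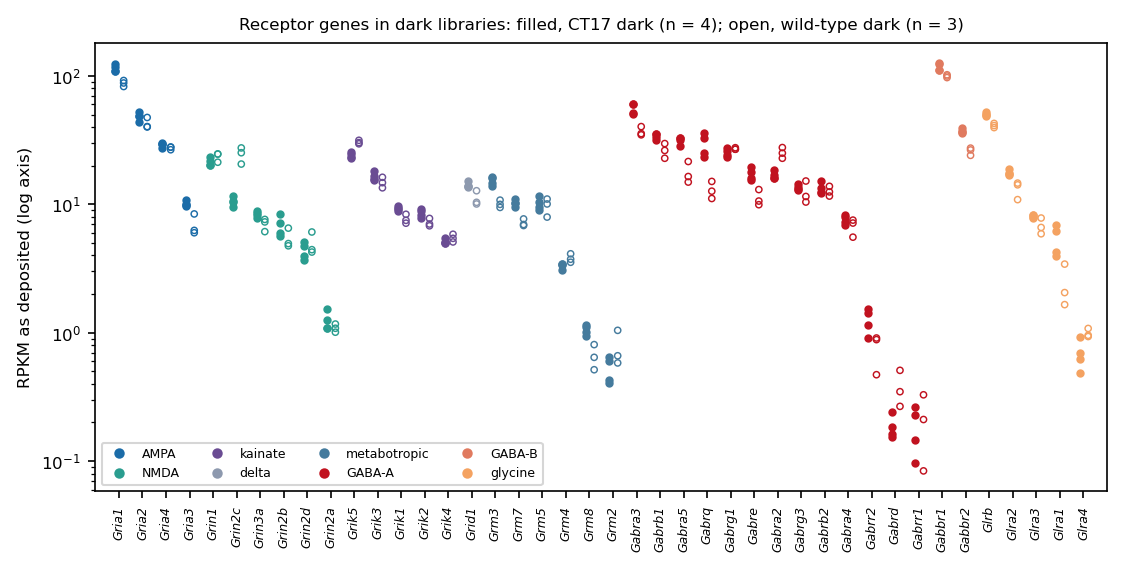
RPKM of receptor genes past the count minimum in the light-pulse experiment, on a log axis, ordered by class and by level. Filled points are the 4 CT17 dark libraries and open points the 3 wild-type dark libraries of the Npas4 experiment; Gabbr1 and Gria1 stand highest, and Gabrd and Gabrr1 lowest.

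Among AMPA receptor genes Gria1 made up 56.8% ± 2.32 of the class sum of RPKM in the dark at CT17 (SD, n = 4). Gria2 followed at 23.9% ± 1.72 and Gria4 at 14.3% ± 0.909. These shares rest on a length of 6043 bases for Gria1 and 15548 for Gria2. In CPM, counts scaled to the library size alone, Gria2 had 743 ± 48.5 and Gria1 689 ± 56.2 (SD, n = 4). Gria3 lay at 10.1 ± 0.549 RPKM. The obligatory NMDA receptor subunit Grin1 lay at 21.5 ± 1.53 RPKM. Of the NMDA subunits that pair with it, Grin2c stood at 10.5 ± 0.890, Grin3a at 8.37 ± 0.477, Grin2b at 6.81 ± 1.25, Grin2d at 4.38 ± 0.673 and Grin2a at 1.24 ± 0.213 RPKM. Grin2a, the subunit that rises in much of the forebrain after birth, was thus the lowest of these 5 in RPKM. Its 4 libraries did not reach the RPKM range of any other. The lengths used were 5037 bases for Grin2c, 17933 for Grin2a and 24842 for Grin2b. In CPM the order was another, with Grin2b at 168, Grin3a at 102, Grin2c at 52.4, Grin2d at 28.9 and Grin2a at 22.0. The CPM ranges of Grin2a and Grin2d overlapped. In the wild-type dark group of the Npas4 experiment Grin2c lay at 24.4 ± 3.52 RPKM (SD, n = 3), level with Grin1 at 23.5 ± 1.94. The tables were normalised separately, so this contrast between experiments was not tested.

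Kainate receptors, which act on both sides of the synapse, were led by Grik5 at 24.1 ± 1.17 and Grik3 at 16.5 ± 1.16 RPKM, followed by Grik1 at 9.27 ± 0.326. Grid1, of the delta family that binds cerebellins rather than glutamate at synapses, lay at 14.1 ± 0.710 RPKM. The metabotropic receptors signal through G proteins. Grm3, which is coupled to inhibition of cAMP, was the highest at 15.2 ± 1.16 RPKM, followed by Grm7 at 10.3 ± 0.580 and Grm5, coupled to calcium release, at 10.1 ± 1.16, and these last 2 overlapped. Grm4, a presynaptic receptor, lay at 3.31 ± 0.154 RPKM.

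Of the GABA-A alpha subunits Gabra3 was the highest, with Gabra5 at 31.4 ± 2.12, Gabra2 at 16.9 ± 1.19 and Gabra4 at 7.55 ± 0.630 RPKM. The beta subunit Gabrb1 lay at 33.9 ± 1.84 and Gabrb2 at 13.3 ± 1.27 RPKM, and the gamma subunit Gabrg1 at 25.3 ± 1.88. Gabrd, the delta subunit of extrasynaptic receptors, lay at 0.185 ± 0.0402 RPKM, with 6 to 21 counts in the CT17 dark libraries. The theta subunit Gabrq, by contrast, lay at 29.3 ± 6.02 RPKM, and in the wild-type dark group of the Npas4 experiment at 12.9 ± 2.00. Of the glycine receptor alpha subunits Glra2 was the highest at 17.6 ± 0.838, then Glra3 at 8.05 ± 0.197 and Glra1 at 5.32 ± 1.43 RPKM. Gabbr2, the GABA-B subunit that couples to the G protein, lay at 37.4 ± 1.55 RPKM.

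Only 4 symbols stayed below the minimum in both tables: Gabra6, the alpha subunit of cerebellar granule cells, Gabrp, Gabrr3 and Grm6, the receptor of retinal bipolar cells. Grm6, nearest below, had 44 counts in wild-type dark library 1 and 0 or 1 in each of the other 27 libraries. Grin3b, nearest above, passed in the Npas4 table alone with 12 and 13 counts in 2 libraries, and had at most 6 in the light-pulse table. Gabrr1 reached at most 18 counts in the light-pulse table. After the test's own filter, 46 members were tested among 14524 genes (Gabrr1 was not) and 47 among 15001 (Grin3b was not).

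The first comparison asked which receptor genes changed with light of increasing length. With 0.5 h of light none of the 46 passed edgeR's quasi-likelihood test at an adjusted p of 0.05, where 0.468% of all genes did. The same was true of 1 h (0 of 46, against 1.27% of all genes) and of 3 h (0 of 46, against 3.24%), each compared with CT17 dark, and of 6 h compared with CT23 dark (0 of 46, against 1.41%). At an unadjusted p under 0.05 there were 2 members at 0.5 h (4.66% of all genes), 0 at 1 h (8.46%), 5 at 3 h (15.5%) and 8 at 6 h (9.45%). DESeq2 called 1 member at 3 h and none at the other times. The median log2 change of the members was -0.03 at 0.5 h, 0.02 at 1 h, 0.04 at 3 h and -0.11 at 6 h, and that of all genes tested -0.0056, -0.0054, -0.0156 and -0.0015.

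The depth was enough to bound most of these changes. The 95% interval of the change lay within 1.5-fold in either direction for 42 of 46 members at 0.5 h and at 1 h and for 41 at 3 h and at 6 h, where 87%, 77.5%, 75.4% and 75.7% of all genes had such intervals. It did so for 41 members between CT23 and CT17 in the dark (77.5% of all genes), between 3 h and 1 h (74.4%) and between 6 h and 3 h (76.6%). In the Npas4 experiment described further on, the number was 42 of 47 for light in wild type (81.5% of all genes), 41 for light in null mice (82.2%) and 38 for the difference of these responses (73.6%). Between the genotypes it was 40 in the dark (81.1%), 41 after light (83.1%) and 43 averaged over lighting (89.1%), and for light averaged over genotypes 44 (88.5%). Over the 12 planned comparisons 491 of 557 member tests had an interval of that width. The scarce transcripts Gabrd, Gabrr2 and Glra4 had a wider one in all 12, Grm2 in 8 and Glra1 in 5.

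**Figure D2:**
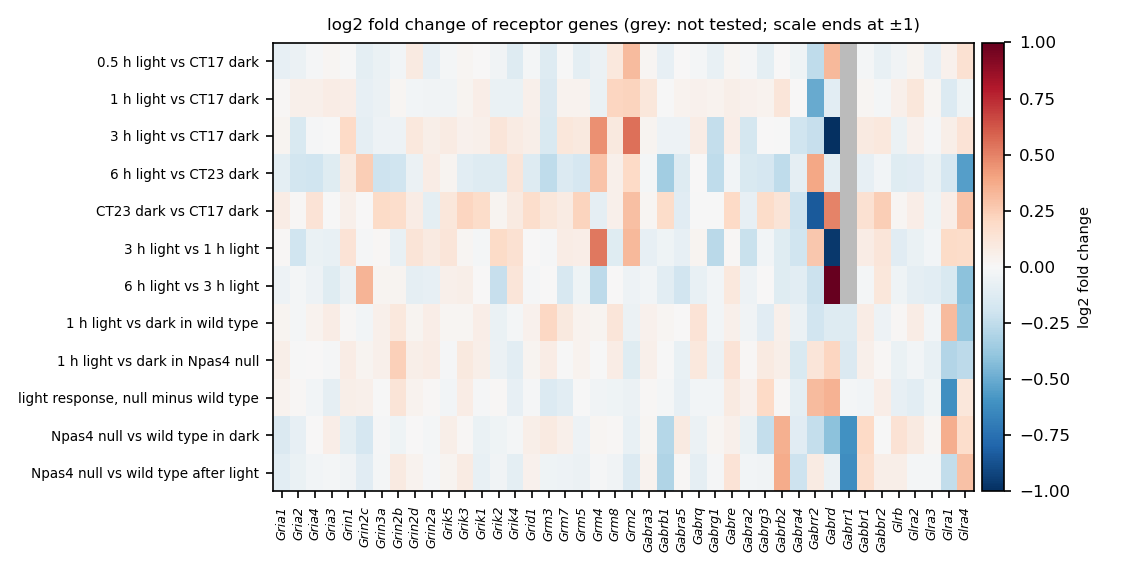
Log2 fold change of receptor genes (columns, by class and level) in the 12 planned comparisons (rows), with grey for a gene not tested and a scale that ends at a log2 change of 1 either way. Most cells are pale; the stronger colours lie with the scarce genes Gabrd, Gabrr2, Grm2, Gabrr1, Glra1 and Glra4, with Grm4 at 3 h and, in the last 2 rows, with Gabrb2.

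The member nearest the threshold after 3 h was Grm4. Its level in CPM, counts scaled to the library size, was 16.3, 17.3, 18.4 and 17.7 in the CT17 dark libraries and 22.7 and 22.3 after 3 h. It was 16.04 and 15.2 after 1 h, 18.0 and 19.5 after 6 h, and 14.9 and 15.96 at CT23 in the dark. The 3 h libraries lay above those of every other light-pulse group. The log2 change from CT17 dark was 0.46 ± 0.12 (SE, adjusted p = 0.0542, edgeR), and from 1 h of light 0.52 ± 0.13 (adjusted p = 0.069). With DESeq2 the adjusted p at 3 h was 0.0366, with size factors in place of TMM 0.0484, and with 1 library left out it passed in 3 of 16 fits: without CT17 library 2 (adjusted p = 0.0342), 0.5 h library 1 (0.0406) or 0.5 h library 2 (0.0171), the last of which had 12.6 CPM against 16.998 to 18.9 in the other 0.5 h libraries. Between 3 h and 1 h it passed without 0.5 h library 2 (0.00739).

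Gabrg1, a gamma subunit of GABA-A receptors, had lower estimates without passing. Its CPM was 215, 183, 208 and 181 in the CT17 dark libraries, where the second and the last carry the suffix, against 167 and 191 after 3 h. After 6 h it was 176 and 177, against 197 and 224 at CT23 in the dark. The 3 h libraries overlapped those of CT17, whereas those of 6 h lay below both of CT23. The log2 change was -0.24 ± 0.070 at 3 h (adjusted p = 0.085, edgeR) and -0.26 ± 0.074 at 6 h (adjusted p = 0.139). Of 8 astrocyte markers 1 passed at 6 h, where 1.41% of all genes did. This was Gfap, which rose, while the median log2 change of the 8 was -0.04. At 3 h 1 of the 8 passed, against 3.24% of all genes. This was Aqp4, which fell, and the median of the 8 was -0.14. The summed astrocyte markers spanned 2085 to 2500 CPM at CT17, 1968 to 2098 at 3 h, 2074 to 2155 at CT23 and 2284 to 2434 at 6 h, and their part in the Gabrg1 values was not tested.

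At the earlier times the smallest p-values belonged to small differences. After 0.5 h Grik4 had a log2 change of -0.13 ± 0.055 (adjusted p = 1, edgeR). After 1 h Gabra3 had 0.11 ± 0.061 and Grm3 -0.14 ± 0.084 (adjusted p = 0.712 and 0.749). At 6 h Gria4 had -0.20 ± 0.063 (adjusted p = 0.2). Between 6 h and 3 h of light, where 0.633% of all genes passed, none of the 46 did. At an unadjusted p under 0.05 there were 6 (6.99% of all genes), and Grik2 had -0.23 ± 0.076 (adjusted p = 0.417). Between 3 h and 1 h, where 1.53% of all genes passed, none did either, with 6 at an unadjusted p under 0.05 (12.1% of all genes). There DESeq2 called Grm4 and Gabrg1.

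Between CT23 and CT17 in the dark, 0 of 46 members passed, against 0.269% of all genes, and DESeq2 called none. At an unadjusted p under 0.05 there were 9, against 10.2% of all genes. Of the members 36 of 46 had a higher estimate at CT23, with a median log2 difference of 0.08 against -0.0056 over all genes. The matching count over all genes was not made. The comparison of 6 h of light used the same 2 CT23 libraries, and there 11 of 46 had a higher estimate with light (median -0.11). These 2 medians are therefore not independent. Gabbr2 had 239, 243, 268 and 241 CPM at CT17 and 285 and 309 at CT23, so the groups did not overlap, with a log2 difference of 0.24 ± 0.082 (adjusted p = 0.347, edgeR). Gabra4, an alpha subunit often found with delta, had -0.21 ± 0.072 (adjusted p = 0.351).

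A test of any difference among the 6 light-pulse groups was added after these values were seen. In it 1 of the 46 members passed, where 4.74% of all genes did. At an unadjusted p under 0.05 there were 7 members, against 17.7% of all genes. Gabrg1 had an adjusted p of 0.0561, Gabra4 of 0.072 and Grm4 of 0.0731 (edgeR). With 1 library left out, 1 or 2 members passed.

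**Figure D3:**
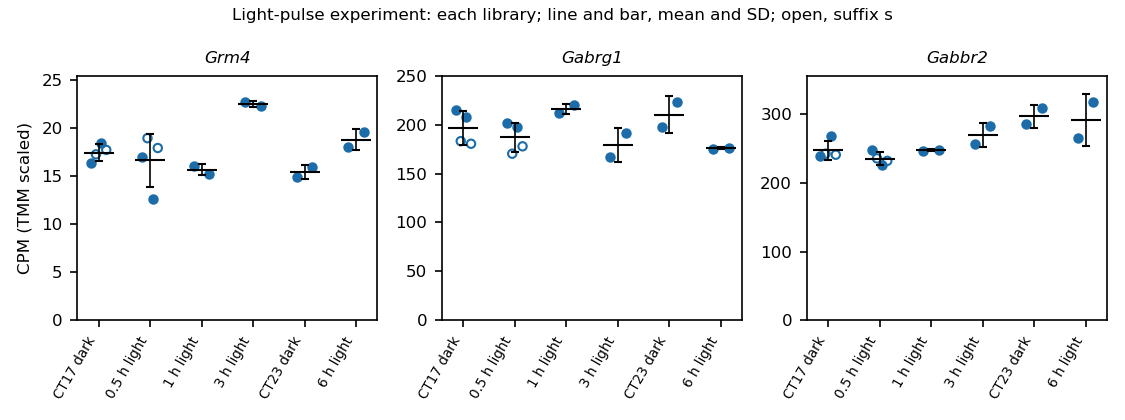
CPM of Grm4, Gabrg1 and Gabbr2 in each light-pulse library, with mean and SD per group and open points for the suffix s; axes start at 0. Grm4 is highest at 3 h, 22.7 and 22.3 CPM, and Gabbr2 at CT23, 285 and 309 CPM, lies above CT17.

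Summed over a class, the RPKM of receptor genes was highest at CT23 in the dark for GABA-A and AMPA receptors. The GABA-A sum was 394 ± 11.7 at CT17 (SD, n = 4), 392 ± 4.78 after 3 h, 417 ± 25.9 at CT23 in the dark and 384 ± 19.9 after 6 h (n = 2 each). The AMPA sum was 203 ± 6.10, 203 ± 1.76, 215 ± 4.77 and 198 ± 5.30 in the same groups, and the NMDA sum 52.8 ± 3.13, 57.4 ± 0.0900, 58.3 ± 1.79 and 59.2 ± 3.59. Between CT23 and 6 h the libraries did not overlap in the AMPA sum, and in the GABA-A sum the gap between them was smaller than either SD. The sums were not tested and hold no term for the suffix. Of the 4 CT17 libraries 2 carry it, and none at 3 h, CT23 or 6 h does. With the suffix 17 members were lower and 3 higher past the threshold. Among the lower were Gria1 (-0.20), Grin1 (-0.22), Grin2a (-0.45), Grin2b (-0.52) and Grin2d (-0.33). Differences of these sums from CT17 therefore cannot be told apart from the suffix.

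The choice of the covariate changed how many members were called after 1 h and 3 h. All 4 libraries of 1 h and 3 h belong to batch 2 of the labels, which also holds the libraries with the suffix. At CT17 and 0.5 h every library with the suffix is of batch 2 and every one without it of batch 1. There the suffix and the batch cannot be told apart. With the suffix as the term, light of 1 h or 3 h cannot be told apart from the batch either. With the label batch in place of the suffix as the term, 6 members passed after 1 h and 9 after 3 h. Over all genes the calls went from 184 to 1218 and from 471 to 1664. Among these members were Glra1 at -0.81 and -0.61, Gabrq at 0.50 and 0.53 and Grin1 at 0.27 and 0.41.

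The libraries with and without the suffix differed in these same genes. Compared over CT17 and 0.5 h, 20 of 46 members passed, 3 higher and 17 lower with the suffix, where 21.8% of all genes passed. At an unadjusted p under 0.05 there were 23, against 34.7% of all genes. This comparison was added after the data were seen. Glra1 was higher by 0.70 ± 0.11 on the log2 scale (SE, adjusted p = 0.000821, edgeR), with 14.5, 16.2, 17.1 and 15.9 CPM against 9.51, 10.4, 8.99 and 10.2 in the libraries without it. Gabrq, at 122, 131, 133 and 121 CPM against 174, 195, 172 and 185, differed by -0.52 ± 0.066 (adjusted p = 0.000195). For both genes the ranges did not overlap. The NMDA subunits Grin2b (-0.52 ± 0.12), Grin2a (-0.45 ± 0.10), Grin2d (-0.33 ± 0.061) and Grin1 (-0.22 ± 0.059) were all lower, and Gabra5 (0.17 ± 0.059) was higher.

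Markers of every listed cell type differed with the suffix too, where 21.8% of all genes passed. Of 12 SCN neuron genes 3 were higher and 2 lower, and of 8 pan-neuronal genes 2 were higher and 1 lower. Of 8 astrocyte genes 1 was higher and 3 lower. Of 6 microglia genes 2 were higher, and of 5 endothelium genes 1. Of 10 oligodendrocyte genes 5 were higher and none lower, Mog by 0.51 ± 0.13. Of 8 genes of other hypothalamic neurons 4 were higher and 2 lower, with Nr5a1 of the ventromedial nucleus at 1.75 ± 0.25 and Trh at -1.54 ± 0.072. The part of all these markers in the receptor values was not tested. With the suffix and the label batch as terms together, 6 members passed in place of 20, and 277 of all genes in place of 3171. In that fit only the 2 CT23 libraries, 1 of each batch, separate the batch from the suffix. The lower counts therefore cannot be read as fewer differences. Without 0.5 h library 2s, 13 members and 1872 of all genes passed.

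**Figure D4:**
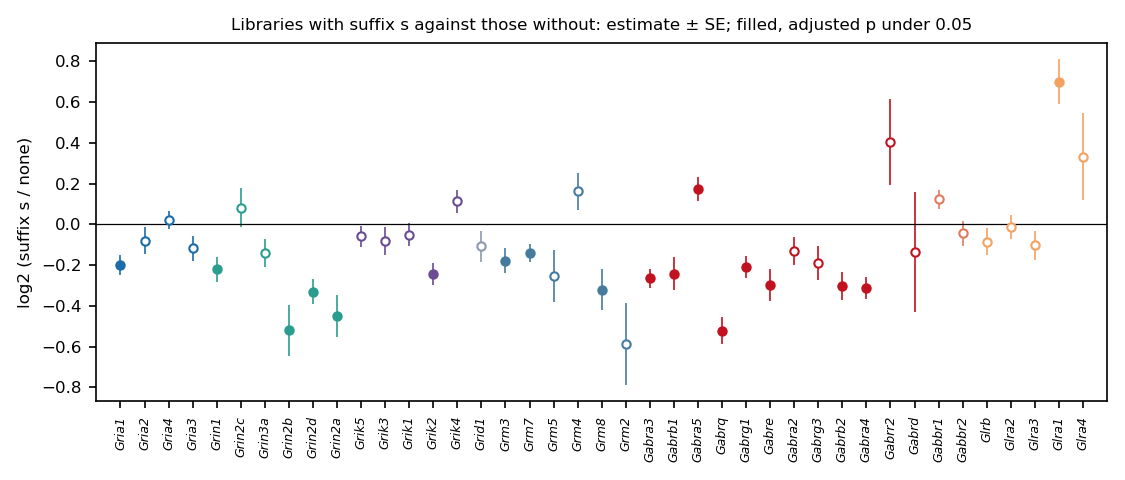
Log2 difference of libraries with the suffix s from those without, over CT17 dark and 0.5 h light, for receptor genes by class; bars are ± SE and filled points passed the test. Glra1 stands highest among the filled points at 0.70 and Gabrq lowest at -0.52.

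The Npas4 experiment asked how the light response and the resting levels differ without NPAS4. The targeted gene itself was counted 236, 250 and 249 times in the wild-type dark libraries and 406, 327 and 423 times after light. In the libraries labelled null it was counted 146, 281 and 287 times in the dark and 127, 236 and 152 times after light. The dark groups overlapped and the light groups did not. Which part of the gene is deleted is not given, so counts over the whole gene do not check the deletion, and null below means libraries so labelled.

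With 1 h of light none of the 47 members tested passed in wild type (2.57% of all genes did) or in null mice (1.56%). The difference between these responses was tested as an interaction. It had 0 of 47 members past the threshold against 0.0133% of all genes, and 0 members at an unadjusted p under 0.05 (2.28% of all genes). At that unadjusted p there was 1 member in wild type (9.55% of all genes) and 0 in null mice (7.93%). That member was Grm3 at 0.20 ± 0.090 (adjusted p = 0.484, edgeR). The glycine receptor subunit Glra4 had -0.38 ± 0.21 in wild type and -0.26 ± 0.21 in null mice, at 38 to 79 counts per library. Grik4 had -0.10 ± 0.076 in null mice (adjusted p = 0.934). The interaction with the smallest p was that of Glra1 at -0.61 ± 0.41 (adjusted p = 1), and Grm3 had -0.13 ± 0.13. DESeq2 called none in these 3 comparisons.

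Between null and wild type the GABA-A subunit Gabrb2 was near the threshold in the dark and after light alike. It had 85.6, 81.5 and 71.7 CPM in the dark in wild type and 101, 107 and 97.6 in null mice. After light it had 85.0, 85.5 and 76.2 in wild type and 100.1, 113 and 106 in null mice. Every null library thus lay above every wild-type library.

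In the separate comparisons it did not pass. In the dark the log2 difference was 0.36 ± 0.076 (SE, adjusted p = 0.0566, edgeR), and 0 of 47 members passed, against 0.753% of all genes, while 5 had an unadjusted p under 0.05 (9.19% of all genes). After light it was 0.37 ± 0.076 (adjusted p = 0.0644), again with 0 of 47, against 0.467% of all genes, and 4 at an unadjusted p under 0.05 (5.91%). In the dark, where same-numbered libraries deviated together, the replicate block gave an adjusted p of 0.00309 for Gabrb2 and 0.0155 for Gabrb1 (-0.27). With it 3 of 47 members passed, and over all genes it called 463 in place of 113. DESeq2 called 2 members in the dark and 2 after light, and gave Gabrb2 an adjusted p of 0.00315 in the dark and 0.00211 after light. With edgeR, Gabrb2 passed after light without wild-type dark library 3 (0.0443), and 1 member passed in the dark without null dark library 2 or wild-type dark library 1.

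A comparison of the 6 null with the 6 wild-type libraries, each lighting condition weighted equally, was added after these values were seen. In it Gabrb2 was higher in null mice by 0.36 ± 0.054 (adjusted p = 0.00288, edgeR). In all 2 of 47 members passed, where 1.93% of all genes did, with 6 at an unadjusted p under 0.05 (11.7%). Gabrb2 passed in each of the 12 fits that left out 1 library. Gabrb1 had -0.29 ± 0.075 (adjusted p = 0.0819) and Gabbr1 0.18 ± 0.050 (adjusted p = 0.104). Gabrb1 passed without wild-type dark library 3 (adjusted p = 0.0269). Both passed with the replicate block (adjusted p = 0.000657 for Gabrb1 and 0.00788 for Gabbr1) and with DESeq2 (0.0129 each). These fits called 1082 and 511 genes in all, in place of 289. Gabrb1 had 354, 422 and 307 CPM in wild-type dark libraries and 289, 316 and 286 in null ones, which overlapped. After light it had 357, 406 and 334 CPM in wild type and 292, 312 and 285 in null mice, which did not overlap. Gabbr1 had 772, 794 and 732 CPM in wild type and 815, 939 and 880 in null mice in the dark, and 837, 811 and 775 against 854, 967 and 904 after light. Within each lighting condition its null libraries lay above the wild-type ones. Averaged over the genotypes, light had 0 of 47 members past the threshold, against 3.87% of all genes, and 0 at an unadjusted p under 0.05 (12.7%). DESeq2 called none there.

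**Figure D5:**
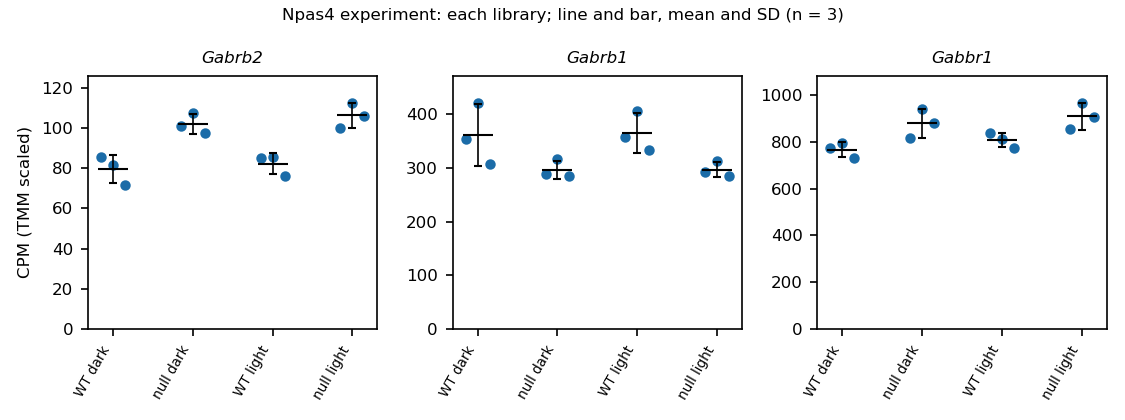
CPM of Gabrb2, Gabrb1 and Gabbr1 in each library of the Npas4 experiment, with mean and SD (n = 3 per group) on axes that start at 0. For Gabrb2 every null library lies above every wild-type library; for Gabbr1 this holds within each lighting condition, and for Gabrb1 the null libraries lie below the wild-type ones after light and overlap them in the dark.

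Among 12 markers of SCN neurons 2 differed with the genotype in the averaged comparison, where 1.93% of all genes passed. The median log2 difference of the 12 was 0.071, against 0.0019 over all genes. The summed CPM of the 12 spanned 1800 to 2603 in wild type and 2359 to 3811 in null mice in the dark, and 2021 to 2628 and 2766 to 3368 after light. The 2 that passed were higher in null mice, Rgs16, a regulator of G-protein signalling, by 1.53 ± 0.11 and the peptide Nms by 1.48 ± 0.14. In the light-pulse experiment Rgs16 also rose after 3 h of light (0.74 ± 0.11) and was higher at CT23 than at CT17 in the dark (1.21 ± 0.10). The 8 pan-neuronal markers summed to 2564 to 2818 CPM in wild type and 2837 to 2932 in null mice in the dark, and to 2624 to 2806 and 2813 to 2955 after light. The part of these in the receptor values was not tested.

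Gabrb2 spans chr11:42419515-42632591 (RefSeq, GRCm38.p6). Gabrb1, the other beta subunit described here, lies on chromosome 5 beside Gabrg1, Gabra2 and Gabra4. In the averaged comparison Gabrg1 had 0.01, Gabra2 -0.05, Gabra4 -0.16 and Gabrb1 -0.29, and none of these 4 passed.

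RefSeq's promoter table held windows of 300 bases around a start site, mostly before it, for 32 of the 48 members. Those of Gabrb2 are shown because it passed in the genotype comparison and the table gives it 3 start sites. Capitals mark matches on either strand. The motifs searched were TGACGTCA, the cAMP response element, its shorter form TGACG that lies within it, the AP-1 motif TGANTCA, the E-box CACGTG and TCGTG, the core bound by NPAS4 with its ARNT partners. The windows follow on the plus strand of GRCm38.p6, at chr11:42420190-42420489, chr11:42420524-42420823 and chr11:42420951-42421250.
Gabrb2 start 1: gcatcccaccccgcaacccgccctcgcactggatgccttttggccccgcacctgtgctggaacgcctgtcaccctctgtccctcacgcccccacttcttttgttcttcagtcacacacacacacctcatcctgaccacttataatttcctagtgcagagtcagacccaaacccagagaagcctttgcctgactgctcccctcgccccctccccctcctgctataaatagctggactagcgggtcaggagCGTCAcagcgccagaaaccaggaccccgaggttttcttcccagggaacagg
Gabrb2 start 2: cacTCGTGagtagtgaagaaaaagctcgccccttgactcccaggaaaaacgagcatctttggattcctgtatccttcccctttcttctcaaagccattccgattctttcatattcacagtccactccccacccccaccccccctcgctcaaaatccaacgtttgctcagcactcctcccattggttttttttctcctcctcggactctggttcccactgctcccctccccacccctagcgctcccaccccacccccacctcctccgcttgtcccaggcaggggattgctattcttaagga
Gabrb2 start 3: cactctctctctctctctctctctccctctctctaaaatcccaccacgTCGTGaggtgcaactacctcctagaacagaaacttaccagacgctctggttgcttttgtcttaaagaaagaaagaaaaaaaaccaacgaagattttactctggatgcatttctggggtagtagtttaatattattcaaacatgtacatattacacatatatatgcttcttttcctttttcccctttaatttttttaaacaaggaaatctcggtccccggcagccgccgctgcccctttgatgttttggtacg

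The first window holds TGACG on the opposite strand, beginning 1 base before the start site, and the others hold TCGTG 247 and 202 bases before theirs. Matches to TCGTG occur in 17.8% of all 19719 windows and in 6 of the 39 windows of members (15.4%). TGACG occurs in 24.1% of all windows and in 6 of the members' (15.4%), TGACGTCA in 2.32% and 0, TGANTCA in 7.02% and 2, and CACGTG in 7.97% and 1. The E-box matches were both in Grin1. The matches are a description of letters, and the shares among members lie below those of all windows for each of these motifs.

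Gabrb1 and Gabra4 start 387 bases apart on opposite strands of chromosome 5, and their promoters are shown because 1 peak of trimethylated histone H3 (H3K4me3, a mark of active promoters) covers both starts. Gabrb1 is on the plus strand at chr5:71657671-71657970 and Gabra4 on the minus strand at chr5:71658259-71658558. Neither holds a match to the motifs above.
Gabrb1: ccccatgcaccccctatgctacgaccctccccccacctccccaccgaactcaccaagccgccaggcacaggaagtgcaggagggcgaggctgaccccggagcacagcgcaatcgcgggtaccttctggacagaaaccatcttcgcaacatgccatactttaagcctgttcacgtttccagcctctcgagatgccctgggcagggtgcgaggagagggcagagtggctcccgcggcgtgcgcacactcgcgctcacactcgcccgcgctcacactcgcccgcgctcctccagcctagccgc
Gabra4: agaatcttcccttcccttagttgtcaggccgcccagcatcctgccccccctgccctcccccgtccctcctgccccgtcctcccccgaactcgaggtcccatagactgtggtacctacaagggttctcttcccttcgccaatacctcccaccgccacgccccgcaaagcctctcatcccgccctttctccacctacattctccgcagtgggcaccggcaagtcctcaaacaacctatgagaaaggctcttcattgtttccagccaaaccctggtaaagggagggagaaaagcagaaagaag

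That peak spanned chr5:71656469-71658786 in the dark library with a fold enrichment of 36.7, and chr5:71656780-71658744 in the light library with 29.8, as given by the authors' peak caller. Acetylated H3 (H3K27ac, found at promoters and enhancers in use) had no peak within 1 kb of the Gabra4 start. Gabrb1 had one at its other start site, with a fold enrichment of 6.16 in the dark and 6.97 after light. Gabrb2 had an H3K4me3 peak over its start sites with 22.0 in the dark and 19.0 after light, and H3K27ac peaks of up to 6.12 and 6.81.

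Within 1 kb of a start site, 28 of 32 members had an H3K4me3 peak in the dark (87.5%, 95% Wilson interval 71.9 to 95, against 66.0% of all genes) and 29 after light (90.6%, 75.8 to 96.8, against 64.9%). H3K27ac had a peak at 20 in the dark (62.5%, 45.3 to 77.1, against 48.4%) and 18 after light (56.2%, 39.3 to 71.8, against 47.5%). With only peaks at a -log10 q of 5 or more, H3K27ac was at 19 in the dark (59.4%, against 45.0%). After light it was then at 14 (43.8%, against 40.1%). With 1 library per list there is no replicate, and the Wilson intervals cover counting error only. The members had passed a count minimum, whereas all genes here means 16160 genes with a start site, more than were tested for expression. The sets are thus unlike, and a higher share among members is not read as a trait of receptor genes. With every peak counted whatever its q-value, the 18 members with a peak in every list had a median of 19.2 RPKM at CT17. They ran from 5.17 for Grik4 to 118 for Gabbr1. The 3 with none, Gabrr1, Gabrr2 and Glra4, lay between 0.183 and 1.25 RPKM. A further 8 had H3K4me3 in dark and light without H3K27ac: Gabra4, Gabre, Gabrq, Glra2, Glra3, Grin2d, Grm2 and Grm8, with a median of 7.80 and up to 29.3 RPKM for Gabrq. Gabra3 and Gabra5 had an H3K27ac peak in the dark list alone, with a -log10 q of 5.225 and 3.738.

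Genes that act with the receptors were listed in 3 groups. Of 32 tested genes of scaffolds and trafficking, Homer1, which tethers metabotropic glutamate receptors and has a short activity-induced form, rose by 2.03 ± 0.091 after 1 h (adjusted p = 7.16e-10, edgeR) and by 0.95 ± 0.094 after 3 h. In the Npas4 experiment it rose by 3.05 ± 0.16 in wild type and 2.5 ± 0.16 in null mice. It was the only gene of the list to pass in any of these except 3 h, where Grip2, an AMPA receptor anchor, rose by 0.47 ± 0.097. Of all genes 1.27% passed after 1 h and 3.24% after 3 h. In the Npas4 experiment 2.57% passed in wild type and 1.56% in null mice.

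Of 31 tested auxiliary subunit genes, Kctd8, a partner of GABA-B receptors, rose by 0.63 ± 0.098 after 3 h and by 0.88 ± 0.11 after 6 h. No other passed at those times, where 3.24% and 1.41% of all genes did. Gsg1l, an AMPA receptor auxiliary subunit, fell by 0.28 in wild type with light and was lower in null than in wild-type mice in the dark (-0.30 ± 0.059). It alone of the 31 passed in these 2 comparisons, where 2.57% and 0.753% of all genes did. Shisa8, of the same kind, was alone in passing between the genotypes after light (0.467% of all genes), higher in null mice (0.89 ± 0.17). In the averaged comparison of genotypes 1 of the 31 was higher and 2 lower, where 1.93% of all genes passed. Among the lower was Cbln2, a ligand of delta receptors, at -0.30 ± 0.063. Of 22 tested genes of transmitter synthesis and transport, Gad1, which makes GABA, rose by 0.48 ± 0.061 after 3 h (adjusted p = 0.000229, edgeR) and by 0.28 ± 0.066 after 6 h (adjusted p = 0.0498). No other of the 22 passed at those times, where 3.24% and 1.41% of all genes did. None of the 22 passed with 0.5 h or 1 h of light (0.468% and 1.27% of all genes in the light-pulse experiment). None passed between the genotypes in the dark (0.753%), after light (0.467%) or averaged (1.93%).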

How the data were processed

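Bulk RNA-seq of SCN tissue was analysed in 16 light-pulse and 12 Npas4 libraries, with 4 narrowPeak lists of histone H3 marks. Per the labels' protocols, mRNA was purified on Dynabeads and made into TruSeq libraries. The deposited tables of the authors hold whole-number counts for each gene, and RPKM values. Dividing counts by one length per gene and by the library total gives the deposited RPKM to within a relative departure of 7.3e-15. The deposited peak lists hold a fold enrichment (a linear ratio) and a -log10 q-value per peak from the authors' caller, 1 library per list. Per the submitters' processing notes, STAR 2.5.2b and 2.7.1a, HTSeq 0.9.1, featureCounts 1.6.2, BWA 0.7.16a, MACS2 2.1.1, HOMER 4.9.1 and mm10 served the series. Not given in the sources used here are the tool behind each file and strand use in counting. For 9 members whose span overlaps another protein-coding gene, among them Gabra4 with Gabrb1, counts are uncertain for that reason. No column of the tables was left out. Single-nucleus samples and ChIP inputs were not analysed here.

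The members and gene lists were chosen with earlier results of these data known. The test was edgeR 4.0.16 in R 4.3.3 (TMM scaling, filterByExpr, quasi-likelihood F-test), fitting each experiment as a whole, with Benjamini-Hochberg adjustment over every tested gene and a threshold of 0.05. The light-pulse model held group and suffix. The label batch was used as an alternative term because it joins the libraries with the suffix to others unlike them. The Npas4 model held the 4 groups. The procedure was run on simulated counts with known changes in 2 comparisons, 3 h against CT17 dark and light in wild type. The simulated libraries held no difference by suffix or batch, so the simulation cannot judge the choice of covariate. Replicates differed by a chi-square per degree of freedom of 4.878 or more, so none were merged. Libraries that share a number with and without the suffix may come from the same pool, so CT17 and 0.5 h may hold fewer than 4 independent pools. Named genes were the members called in a comparison, or the 2 with the smallest p where fewer than 2 were called, the 3 with the highest RPKM per class at CT17, and those next to the count minimum. Some genes that this rule names are not reported here. Gabbr1, Gabrb1, Gabrd and others outside this rule were chosen after their values were seen. Alternatives were DESeq2 1.42.0, DESeq2's size factors (RLE) in edgeR, no filter, other covariates, a replicate block, leaving out each library, and for peaks a wider window and a stricter q-value.

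Same-numbered libraries of the Npas4 experiment were taken as paired where the deviations from the group means correlated above 0.1 in all 3 pairs. This held between null and wild type in the dark (0.205 to 0.525) and between wild-type dark and light (0.198 to 0.264). The rule was also met between null dark and wild-type light (0.156 to 0.2) and between null light and wild-type dark (0.198 to 0.438). The rule was not met between null and wild type after light (-0.013 to 0.171) or between null dark and light (0.098 to 0.483). The labels do not say what a number shares, and the main Npas4 model held no term for it.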

Additional observations from a re-analysis of the deposited data

Results flagged for a closer look

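The 62 groups of 4 libraries formed by 31 named genes at CT17 and at 0.5 h were examined for a single library far from the rest, with a gap to its neighbour that took most of the group's range (Dixon's limit), which chance passes in about 1 of 20 groups. In 3 of them it was exceeded. At CT17 in the dark, library 2 had 268 CPM of Gabbr2 against 239 to 243 in the other 3, and 93.6 CPM of Grid1 against 82.0 to 82.4. At 0.5 h, library 1 had 809 CPM of Gria2 against 676 to 692. No response to light differed between the genotypes by the interaction test or by opposite directions in every library.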

How the results depend on the processing

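Among the 12 planned comparisons, 7 kept a count of 0 members under every alternative run: 0.5 h, 6 h, CT23 against CT17, 6 h against 3 h, light in wild type, light in null mice and the interaction. After 1 h, the label batch gave 6 (1218 of all genes against 184), and turned Grm3 from -0.14 to 0.012. After 3 h, it gave 9 (1664 against 471), the replicate block 2 (Gabrg1 and Grm4), DESeq2 1, RLE scaling 1, and leave-one-out 0 to 1. Between 3 h and 1 h, DESeq2 gave 2 and leave-one-out 0 to 1. Between null and wild type in the dark, the replicate block gave 3, DESeq2 2, no filter 1 and leave-one-out 0 to 1, and after light the replicate block 3, DESeq2 2 and leave-one-out 0 to 1. Of the comparisons added later, the averaged genotype difference had 2 members (289 of all genes), 6 with the replicate block (1082), 4 with DESeq2 (511) and 2 to 3 in leave-one-out. The suffix had 20 (3171 of all genes), 6 with both terms (277) and 13 to 21 in leave-one-out. In the fit with both terms only the CT23 libraries separate the batch from the suffix. The test over the 6 groups had 1 (689 of all genes), 7 with the label batch (2221), 3 with the replicate block (1001) and 1 to 2 in leave-one-out. The replicate block raised the calls among all genes in the dark genotype comparison from 113 to 463, and after light, where the numbers did not pair by the rule, from 70 to 227. In the light-pulse experiment the groups of 2 have too few pairs to judge. The cause of these moves was not tested. Low counts limit Gabrd, Gabrr1, Gabrr2, Glra4 and Grm2, whose intervals exceed 1.5-fold in most comparisons.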
